A study of Mus musculus with 4 samples.

Results

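A class of 4793 short stretches of mouse chromatin carried a called region of histone H4 lysine 16 acetylation (H4K16ac) in embryonic stem cells (ESC) and none in neural progenitor cells (NPC). They were taken from lists of islands, which are stretches where neighbouring windows with more reads than the background were joined by the caller SICER. Islands belonged to the class if they lay on chromosomes 1 to 19 of the ESC list, were at most 2000 bp wide, held fewer than 120 reads per kb of island, and shared no base with an NPC island. They are called ESC-only narrow moderate islands here. They made up 12.1% of the 39508 ESC islands on these chromosomes (exact 95% interval 11.8% to 12.5%) and 20.5% of the 23395 ESC islands that shared no base with an NPC island. The class was chosen by width, reads, density and absence from the NPC list, so these 4 measures are given as a description and no test was applied to them.

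The NPC group was 46c cells, an ES cell line with GFP in the Sox1 locus, differentiated for 5 days with NB27 and Neuro2 supplements and sorted for GFP by flow cytometry. The ESC group was the same 46c line left undifferentiated. Sox1 is a transcription factor gene that is switched on in early neural progenitors. Both groups carry the reporter and come from 1 cell line, and the chromatin of both was digested with micrococcal nuclease before immunoprecipitation with the same antibody lot. Each group had 1 H4K16ac library and 1 input library, so no difference between NPC and ESC had a replicate check and no p-value was computed. The deposited lists held 48278 islands with 24386370 reads in NPC and 40570 islands with 17935144 reads in ESC. The total depth of the libraries is unknown, because the lists hold reads inside islands only, and the labelled cell types could not be checked against marker genes in these lists.

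H4K16ac is placed on nucleosomes mainly by the acetyltransferase MOF (KAT8), which works in the MSL and NSL complexes. The modified lysine lies in the tail of histone H4 that touches the neighbouring nucleosome, and the mark is known from active genes and, in ES cells, from enhancers. A short island spans fewer nucleosomes than a broad one, and broad islands can cover whole transcribed genes. No gene annotation of the build mm9 was used here, so the islands are given by position on mm9 alone and are assigned to no promoter or enhancer.

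The ESC-only narrow moderate islands were short, but their density was in the middle of the ESC list. Their median width was 1600 bp (quartiles 1200 to 1800 bp), against 3000 bp (1800 to 5600 bp) in all ESC islands of these chromosomes. Their median density was 99.0 reads per kb (quartiles 87.5 to 109), against 92.5 reads per kb (76.9 to 124) in all ESC islands. The median thus lay above the density of 56.9% of ESC islands, and "moderate" describes these islands only beside the dense narrow ones. Each held between 70 and 239 ESC reads, with a median of 145 (quartiles 124 to 167), more than 13.5% of ESC islands. Together they held 706835 reads over 7.32 Mb, which was 4.01% of the ESC island reads and 3.86% of the ESC island bases on these chromosomes.

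The limits of the class cut through continuous distributions. Just below the density limit, 4 islands had 119.5 reads per kb, all with 239 reads, and just above it 121 other ESC-only narrow islands had exactly 120 reads per kb. Of the 4793 islands, 2046 (42.7%) had an exact 95% Poisson interval of reads, which covers counting error only, that reached the limit. At the width limit, 907 islands were 2000 bp wide with a median of 175 reads, and just outside it 880 ESC-only islands of 2200 bp below the density limit had a median of 191 reads. At the overlap limit, 13 islands lay 400 bp or less from an NPC island, 3 of which touched it without sharing a base, and 24 otherwise like islands shared 200 to 400 bp with one.

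Most narrow islands below the density limit had no NPC counterpart. Of all ESC islands, 59.2% shared no base with an NPC island, and of the 6010 narrow islands below 120 reads per kb the share was 79.8% (78.7% to 80.8%). The other 1217 are called shared narrow moderate islands here. Of these, 828 (68.0%) lay wholly inside an NPC island. The NPC islands that the 1217 overlapped, wholly or in part, had a median width of 3200 bp. The ESC-only and the shared narrow moderate islands had a like median width (1600 bp in both), with medians of 145 and 150 reads and of 99.0 and 95 reads per kb. Apart from the single island of 600 bp, absence ranged by width from 89.7% of islands of 800 bp to 75.3% of islands of 2000 bp.

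The reads of the class are set beside those of NPC islands of equal width, as a description only. The rule used reads and width, the lowest reads at each width are set by the ESC call, and the highest by the density limit. At 2000 bp, the ESC-only narrow moderate islands had 117 to 239 reads with a median of 175, and the 1650 NPC islands of that width had 108 to 458 reads with a median of 155. At 1400 bp, the class had 96 to 167 reads with a median of 138, and 1299 NPC islands had 86 to 395 with a median of 123. At 800 bp, it had 80 to 95 reads with a median of 93, and 536 NPC islands had 65 to 150 with a median of 89. The ranges overlapped at each of these widths. NPC reads at the positions of the class are not in the lists, so no ratio between the cell types could be given, and these positions may still carry the mark in NPC below the call.

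**Figure D1:**
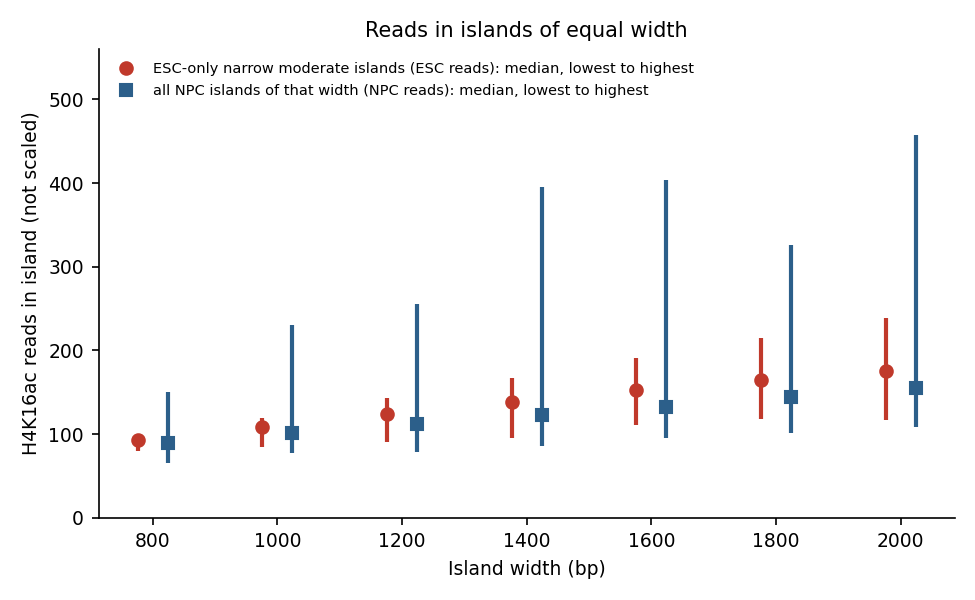
H4K16ac reads per island (y axis, not scaled) by island width in bp (x axis) for ESC-only narrow moderate islands (red, ESC reads) and all NPC islands of that width (blue, NPC reads). Points are medians and lines run from the lowest to the highest island. The red lines start above the blue ones at every width and stop at the density limit of the class, at 239 reads for 2000 bp. The single island of 600 bp is left out.

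Most of the class lay within 100 kb of an NPC island. The nearest one was at a median of 20 kb (quartiles 7 to 59.2 kb). Of the 4793 islands, 465 (9.70%, 8.88% to 10.6%) had an NPC island within 2 kb, 1542 (32.2%, 30.9% to 33.5%) within 10 kb and 2470 (51.5%) at over 10 to 100 kb, and 781 (16.3%, 15.3% to 17.4%) had none within 100 kb. Of all 23395 ESC-only islands, 35.5% had an NPC island within 10 kb and 17.4% had none within 100 kb. The class was therefore near the background of ESC-only islands in both shares.

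That background mixed unlike classes, and the narrow moderate islands lay between them. The 6213 dense narrow ESC-only islands, with 120 or more reads per kb, had their nearest NPC island at a median of 52.4 kb (quartiles 14.6 to 195 kb), and 37.8% of them (36.6% to 39.0%) had none within 100 kb. The 12389 ESC-only islands wider than 2000 bp had it at 12 kb (4.2 to 32 kb), and 7.64% (7.18% to 8.13%) had none within 100 kb. The quartiles of the 3 classes overlapped. All 3 classes were measured against the same NPC list.

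A mirror class in NPC lay at like distances from the other list, except at long range. It holds the 6023 NPC islands of at most 2000 bp that shared no base with an ESC island, with a median width of 1600 bp as in the ESC class. The nearest island of the other list lay at a median of 20 kb in the ESC class and 21.4 kb (quartiles 7.4 to 52.4 kb) in the NPC class, and was within 10 kb for 32.2% and 31.6% (30.4% to 32.8%) of them. The NPC class was less dense, with a median of 86.3 reads per kb (77.1 to 97.2), although no density limit was set on it. All NPC islands were also less dense than all ESC islands, at medians of 76.6 and 92.5 reads per kb. These reads were not scaled for the unknown depth of the libraries. In the ESC class 51 islands (1.06%, 0.793% to 1.40%) lay over 1 Mb from an NPC island, whereas 0 of the 6023 NPC islands lay that far from an ESC island. Over 100 kb, the shares were 16.3% in the ESC class and 11.0% (10.2% to 11.8%) in the NPC class. Another island of the own list lay within 10 kb for 38.3% of the ESC class and 52.9% (51.7% to 54.2%) of the NPC class. The median distances were 16.8 and 8.8 kb. The lists differed in the same direction, with 53.5% of all ESC and 72.2% of all NPC islands, at medians of 8.6 and 3.2 kb. Each class was thus more isolated than its own list as a whole.

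**Figure D2:**
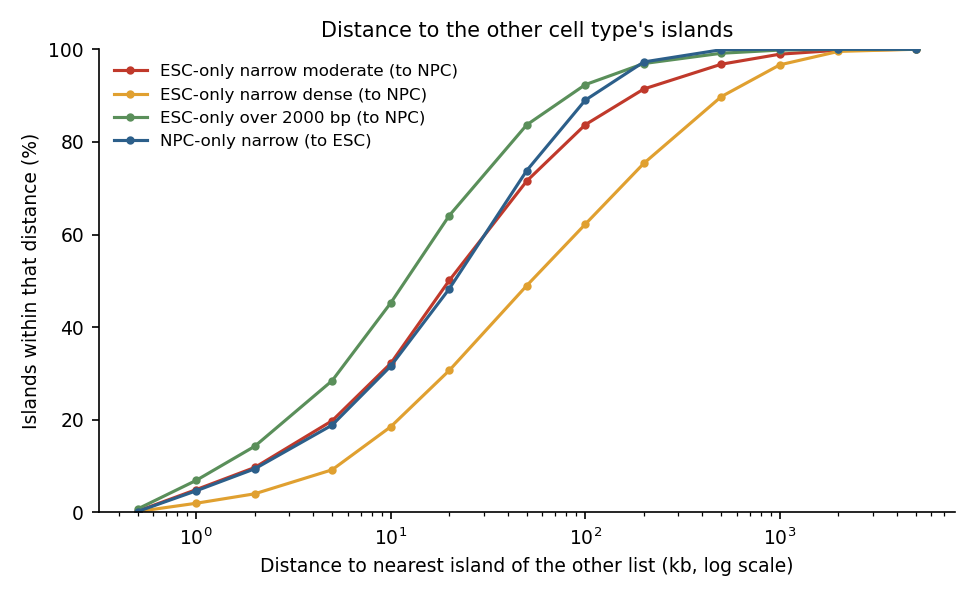
Cumulative share of islands (y axis, %) by distance to the nearest island of the other list (x axis, kb, log scale). ESC-only narrow moderate islands (red) reach 50.1% at 20 kb and run close to the NPC-only narrow islands (blue) up to 50 kb, with the dense narrow ESC-only islands (amber) below and the wider ESC-only islands (green) above.

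Distance changed little with density inside the class. In steps of 10 reads per kb, the median distance to an NPC island was 19.8 kb below 80 reads per kb, 18.2 kb from 80, 18.8 kb from 90, 22.2 kb from 100 and 22.0 kb from 110 to the limit of 120. Among ESC-only islands above the limit it was 39.2 kb at 120 to 140, 53.8 kb at 140 to 160, 75.4 kb at 160 to 180 and 65.4 kb from 180 reads per kb. Narrower islands are denser in these lists, so the comparison was repeated at equal width. At 1400 bp the medians were 22.4 kb below 100 reads per kb, 20.3 kb from 100 to the limit and 40.9 kb above it, from 412, 366 and 750 islands. At 1800 bp they were 17.2, 17.2 and 32.6 kb in the same order, and at 1000 bp 33.6, 31.0 and 72.6 kb, the first of these from 34 islands. At each of these 3 widths the islands above the limit lay farther away than either group of the class.

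Over all narrow widths, the share absent from the NPC list was flat below 100 reads per kb and higher in each step from there to 180. It was 76.6%, 76.5% and 76.7% in the 3 steps below 100 reads per kb, 82.2% from 100 and 84.6% from 110, then 89.9% from 120 to 140, 90.7% from 140 and 93.2% from 160. In the densest step, from 180 reads per kb, it was 84.3% (81.9% to 86.5%). These shares were used by the rule and are a description. Median width fell over these steps, from 2000 bp below 80 reads per kb to 1000 bp at 120 to 160. At equal width the rise was uneven. At 1800 bp, 75.1% were absent below 100 reads per kb, 79.6% from 100 to the limit and 79.9% from 120. At 1400 bp the shares were 79.2%, 83.9% and 88.4%. At 1000 bp they were 91.9% (of 37 islands), 86.4% and 94.3%. By width, the median distance to an NPC island was 42.9 kb in the 218 islands of 800 bp, 21.4 kb in the 778 of 1400 bp and 17.0 kb in the 907 of 2000 bp.

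**Figure D3:**
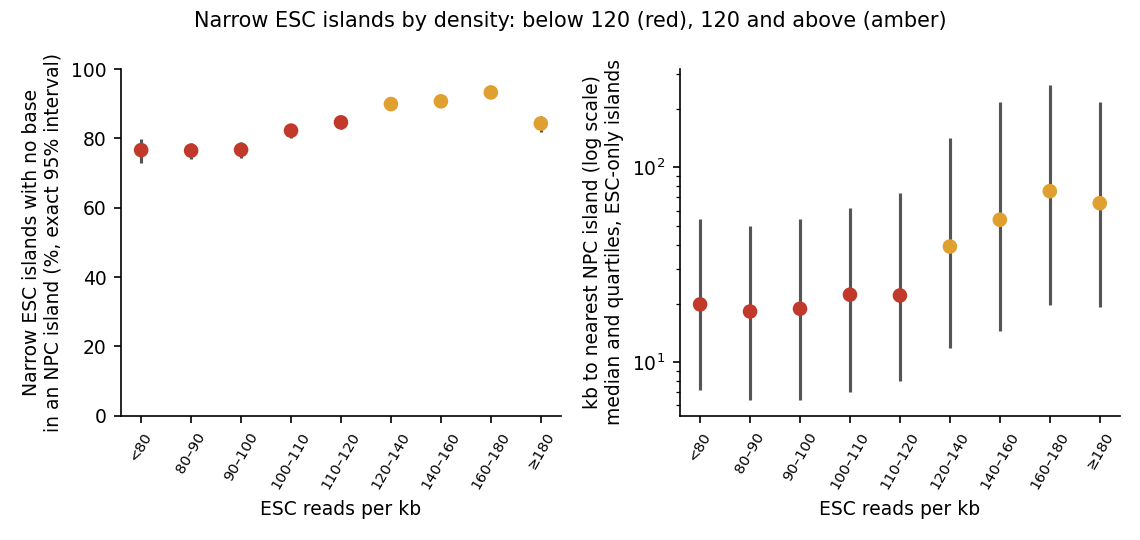
Narrow ESC islands of all widths up to 2000 bp by density in ESC reads per kb (x axes), below 120 in red and from 120 in amber. The left panel gives the share with no base in an NPC island (%, bars are exact 95% intervals). The right panel gives the distance of the ESC-only islands to the nearest NPC island (kb, log scale, median and quartiles). The median stays between 18.2 and 22.2 kb in the red steps and reaches 75.4 kb in the amber ones.

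Within the ESC list, the islands of the class stood farther from other islands than ESC islands did overall. The nearest other ESC island lay at a median of 16.8 kb (quartiles 5.2 to 43.2 kb), against 8.6 kb (2.0 to 26.8 kb) for all ESC islands. Another ESC island lay within 10 kb of 1838 islands of the class (38.3%, 37.0% to 39.7%), against 53.5% of all ESC islands and 43.7% of all ESC-only islands. For dense narrow ESC-only islands the share was 22.4% (21.4% to 23.4%), and for shared narrow moderate islands 49.4% (46.5% to 52.2%). Shared islands of the same shape were thus closer to their ESC neighbours.

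By both kinds of neighbour, 2323 of the 4793 islands (48.5%, 47.0% to 49.9%) had neither an NPC nor another ESC island within 10 kb, against 43.8% of all ESC-only islands. Both lay within 10 kb of 910 islands (18.99%), against 22.9% of ESC-only islands. An NPC island only was within 10 kb of 632 (13.2%), and another ESC island only of 928 (19.4%), against 12.6% and 20.8% of ESC-only islands. At 100 kb, 208 islands (4.34%, 3.78% to 4.96%) had neither, against 5.04% of ESC-only islands. Another ESC island lay within 2 kb of 623 islands (13.0%, 12.1% to 14.0%), against 16.6% of ESC-only islands and 25.2% of all ESC islands. That neighbour was wider than the island itself in 515 of the 623 cases (82.7%), had a median width of 3200 bp, and shared a base with an NPC island in 204 (32.7%, 29.1% to 36.6%).

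Absence from the NPC list ran in neighbourhoods. For 3492 islands of the class (72.9%, 71.6% to 74.1%) the nearest other ESC island was also without an NPC counterpart, against 57.6% of all ESC islands and 71.7% of ESC-only islands. The share was 48.0% (45.1% to 50.8%) for shared narrow moderate islands, so that the neighbours of narrow moderate islands went with their own status. The 72.9% of the class was thus near the value of ESC-only islands in general. It was 97.6% in the 781 islands over 100 kb from NPC islands and 48.1% in the 1542 within 10 kb. These 2 groups were formed by distance to NPC islands. In the group over 100 kb away, a neighbour that overlapped an NPC island would have to reach beyond 100 kb. The nearest other ESC island lay at a median of 48.2 kb in that group. The 97.6% was thus largely fixed by how the group was formed and adds nothing on neighbourhoods. The part of distance in the 48.1% was not tested. The neighbour was another island of the class for 897 islands (18.7%, 17.6% to 19.8%), against 11.6% of all ESC islands and 14.8% of ESC-only islands.

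The NPC neighbours of the class became smaller with distance. Within 2 kb, the nearest NPC island had a median width of 4400 bp, and 26.0% were at least 8000 bp wide. At over 100 kb it was 2200 bp, and 2.82% were that wide. Over all NPC islands, the median was 4200 bp and the share 24.2%. The islands of the class changed less over the same range, with median densities of 96.1 reads per kb within 2 kb and 101 reads per kb at over 100 kb.

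Median island cover around the class was below that around all ESC islands in both cell types. Within 50 kb of each island's centre, NPC islands covered a median of 5.70% of bases (quartiles 0 to 20.2%) and ESC islands 6.40% (2.40% to 16%), the island itself included. Around shared narrow moderate islands the medians were 24.6% in NPC and 11.4% in ESC. Around dense narrow ESC-only islands they were 0% and 2.60%, and around wider ESC-only islands 11.8% and 16.1%. Around all ESC islands they were 17.4% and 15.8%. NPC cover was above ESC cover around 39.0% of the class, 71.9% of the shared islands, 27.7% of the dense narrow ones, 34.0% of the wider ESC-only ones and 45.9% of all ESC islands. By the rule, every shared island has an NPC island over it and no ESC-only island has one, and these are counted in the cover. Part of the difference in NPC cover between shared and ESC-only islands is therefore set by the rule. The size of that part was not tested. No NPC island reached this span around 1377 islands of the class (28.7%), near the 28.5% of all ESC-only islands. The share was 51.2% for dense narrow and 17.0% for wider ESC-only islands. The means, 12.7% in NPC and 11.4% in ESC, lay well above the medians. Over whole chromosomes, NPC islands covered from 6.03% of bases (chromosome 3) to 19.9% (chromosome 11). ESC islands covered from 4.08% to 12.1% on the same 2 chromosomes. Both means were within these ranges, so the class did not lie in ground poorer in islands than whole chromosomes.

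**Figure D4:**
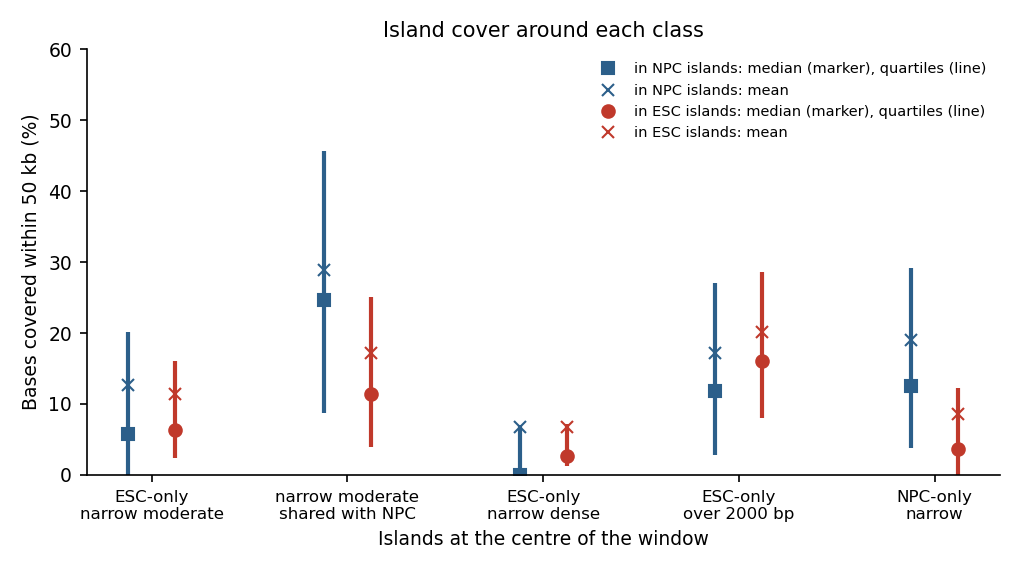
Share of bases (y axis, %) within 50 kb of the centre of islands of 5 classes (x axis) that lay in NPC islands (blue) and in ESC islands (red). Markers are medians, lines quartiles and crosses means. ESC-only narrow moderate islands have medians of 5.70% in NPC and 6.40% in ESC, and the shared islands of the same shape 24.6% and 11.4%. The NPC island that overlaps each shared island is included.

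The class was found on every autosome, at 1.94 islands per Mb over all. The values ran from 1.62 per Mb on chromosome 1 to 2.49 on chromosome 13 and 2.67 on chromosome 19, each counted up to the last island of the chromosome. All ESC islands numbered 12.9, 15.5 and 21.9 per Mb on these chromosomes, the last being the highest of all. The class made up 12.6% of ESC islands on chromosome 1 and 12.2% on chromosome 19, near the 12.1% over all chromosomes. As a share of the ESC islands of a chromosome, chromosome 13 came first with 300 of 1863 (16.1%, 14.5% to 17.9%), then chromosome 3 with 301 of 1955 (15.4%, 13.8% to 17.1%) and chromosome 10 with 282 of 1889 (14.9%, 13.4% to 16.6%). Chromosomes 7 and 11 had the lowest shares, 260 of 2523 and 264 of 2564, both 10.3%. The intervals of the 3 highest did not overlap those of the 2 lowest, and they treat islands as independent draws.

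The share of a chromosome's ESC islands that belonged to the class was lower on chromosomes with more cover. Across the 19 chromosomes its Spearman rho with the bases covered by NPC islands was -0.66, and with those covered by ESC islands -0.63. The share of narrow moderate islands that were absent from the NPC list had a rho of only -0.21 with NPC cover. Chromosome 3 had the least NPC cover (6.03%) and chromosome 11 the most (19.9%). These 19 points come from 1 pair of libraries, and the number of all ESC islands is the base of the share. The median distance to an NPC island ran from 13.0 kb on chromosome 17 and 13.5 kb on chromosome 11 to 27.4 kb on chromosome 3. Median density varied little, between 95.6 reads per kb on chromosome 19 and 101 on chromosome 17.

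**Figure D5:**
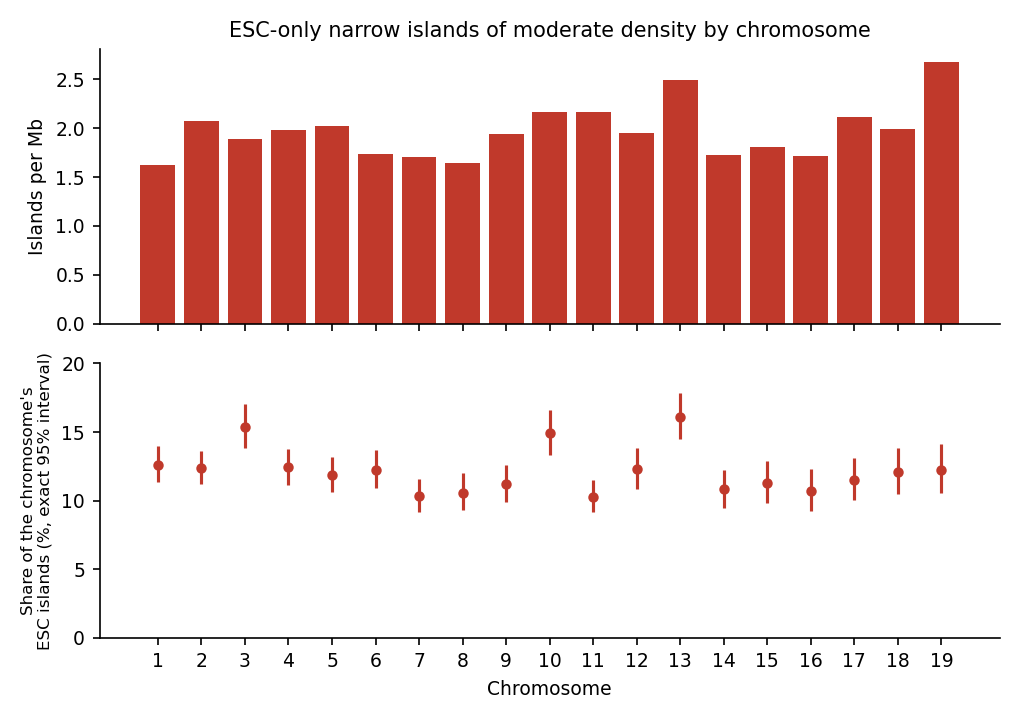
ESC-only narrow moderate islands by chromosome (x axis), as islands per Mb (upper panel) and as a share of the ESC islands of that chromosome (lower panel, %, bars are exact 95% intervals). Chromosome 19 has the most per Mb, at 2.67, and also the most ESC islands of any kind per Mb, with a share of 12.2%. Chromosomes 13, 3 and 10 have the highest shares, at 16.1%, 15.4% and 14.9%.

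The islands were spread widely, with some close groups. Of 2482 windows of 1 Mb, 1873 (75.5%) held at least 1 of them, 621 held exactly 1 and 226 held 5 or more. The variance of the count per window was 1.73 times its mean. Windows with more of the class also held more islands of both lists, the class itself counted among ESC islands: with 6 or more, the medians were 27 NPC and 29 ESC islands, against 10 NPC and 10 ESC islands in windows with 1. Another island of the class lay within 20 kb of 646 islands (13.5%, 12.5% to 14.5%), and an island of the class lay within 20 kb of 11.7% (11.2% to 12.2%) of the other ESC-only islands. The share of 13.5% depended on the limits of the class and was 6.95% below 100 reads per kb and 8.35% up to 1600 bp, where fewer islands belong to it. The 646 islands formed 281 pairs, 23 runs of 3 and 1 run each of 4, 5 and 6.

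Of the 5 windows with most islands of the class, 3 held few or no NPC islands. On chromosome 2, positions 176000001 to 177000000 held 12, with 92 to 188 reads and 84.4 to 118 reads per kb, among 1 NPC and 19 ESC islands. The 11 gaps between them were 36.8 to 126 kb long with a median of 72.8 kb, so that none lay close to the next. The window overlaps a stretch from 174964601 to 176864200 without any NPC island, in which 20 of 27 ESC islands belonged to the class, the most in any stretch of 500 kb or more without an NPC island. On chromosome 13, 66000001 to 67000000 held 11, with 104 to 214 reads, among 0 NPC and 36 ESC islands. There the class was mixed with wider islands: in the NPC-free stretch from 65343001 to 67033200, 18 of 60 ESC islands belonged to it, 34 were wider than 2000 bp and 8 were dense and narrow. These 2 stretches were chosen after their values were seen.

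On chromosome 18, 37000001 to 38000000 held 12, with 102 to 181 reads, among 4 NPC and 39 ESC islands. Of the ESC islands, 36 had no NPC counterpart. The window contains the longest run of the class, 6 islands within 40.2 kb at 37892001 to 37932200, where 0 NPC and 9 ESC islands were called. The run was named after its values were seen. Its islands held 168, 102, 110, 119, 110 and 172 reads from left to right, over widths of 1800, 1000, 1000, 1000, 1000 and 2000 bp. Their densities, 86.0 to 119 reads per kb, were all below the limit. The nearest NPC islands lay 46.4 to 84.8 kb away.

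The other 2 windows lay in ground that NPC islands covered too. On chromosome 12, 73000001 to 74000000 held 12 of the class, with 92 to 190 reads, among 18 NPC and 28 ESC islands, and the NPC islands lay at a median of 29.9 kb from them. On chromosome 5, 108000001 to 109000000 held 10, with 105 to 193 reads, among 32 NPC and 40 ESC islands, at a median of 20.3 kb. In this last window NPC islands covered 16.7% of bases and ESC islands 17.6%.

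The second longest run, also named after its values were seen, lay on chromosome 13 at 21334201 to 21368800. Its 5 islands held 107, 117, 112, 103 and 177 reads, and the nearest NPC islands lay 132 to 165 kb away. As 0 NPC islands were called in that stretch, all 7 of its ESC islands lacked an NPC counterpart.

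The islands farthest from NPC islands lay in stretches almost empty in both lists. On chromosome 15, 16322801 to 16323600 held 91 reads (exact Poisson interval 73.3 to 112) in 800 bp and was 3271 kb from the nearest NPC island. Next came 16844001 to 16845400 on the same chromosome with 145 reads (122 to 171) at 3083 kb. Then followed 83698401 to 83699600 on chromosome 14 with 104 reads (85.0 to 126) at 2905 kb. The other 2 were 3319001 to 3320600 on chromosome 3 with 159 reads and 15837601 to 15839200 on chromosome 15 with 176 reads. Within 500 kb of each of these 5 there were 0 NPC islands and 3 to 6 ESC islands, counting itself, all without an NPC counterpart. The absence of NPC islands and counterparts follows from picking these 5 by distance to NPC islands. The stretch of chromosome 15 spans 6.88 Mb without an NPC island, from 13052001 to 19928600, and its 15 ESC islands were 7 of the class and 8 dense narrow ones.

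Long stretches without NPC islands held mostly narrow ESC islands. In the 654 stretches of at least 500 kb without an NPC island, 3867 ESC islands were called, of which 757 (19.6%) were of the class, 2286 (59.1%) dense and narrow and 824 (21.3%) wider than 2000 bp. Among ESC-only islands as a whole, the class made up 20.5%, so its share in these stretches was near the background. Of all 23395 ESC-only islands, 6213 were dense and narrow and 12389 were wider than 2000 bp. The narrow majority in these stretches thus came mainly from the dense narrow islands. Of all 4793 islands of the class, 757 (15.8%) lay in them, against 3867 of the 23395 ESC-only islands. By class, these were 2286 of the 6213 dense narrow and 824 of the 12389 wider ESC-only islands.

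The islands nearest to an NPC island touched it or lay 1 window away. On chromosome 5, 128183801 to 128185000 held 113 reads and ended at the base before an NPC island of 7000 bp with 414 reads. On chromosome 7, 24959401 to 24961200 held 133 reads and touched an NPC island of 4400 bp with 241 reads. On chromosome 9, 102866201 to 102867400 held 113 reads and touched one of 5400 bp with 435 reads. The 2 at a distance of 200 bp were 118252201 to 118253200 on chromosome 2, with 114 reads, and 8335001 to 8337000 on chromosome 14, with 155 reads. In 4 of these 5 the nearest other ESC island overlapped an NPC island, as on chromosome 14, where an NPC island of 11000 bp and an ESC island of 10400 bp ended at the same base.

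The islands with most reads were at the limit that the rule sets and differed in their surroundings. Those on chromosomes 2, 3, 6 and 15, at 134330801, 96531001, 143047601 and 28188001, each held 239 reads (210 to 271) in 2000 bp, and the one at 68732201 on chromosome 3 held 238. The nearest NPC island was 295 kb and 233 kb away on chromosomes 2 and 15, 10.4 kb away on chromosome 6, and 10.2 and 1.8 kb away for the 2 on chromosome 3. Within 500 kb of the one on chromosome 2 there were 3 NPC and 4 ESC islands, and within 500 kb of the one at 96531001 there were 31 NPC and 50 ESC islands.

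Isolation within the ESC list did not go with isolation from NPC islands in every case. The island farthest from any other ESC island, at 29218801 to 29220400 on chromosome 9 with 187 reads (161 to 216), had none within 769 kb but an NPC island of 4000 bp at 18.8 kb and 15 NPC islands within 500 kb. The next, at 79085001 on chromosome 13 with 127 reads, 148005801 on chromosome 3 with 123, 67633401 on chromosome 1 with 98 and 14627201 on chromosome 15 with 116, were 527 to 586 kb from other ESC islands. Their nearest NPC islands lay at 157, 93.8, 150 and 1575 kb in that order.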

How the data were processed

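H4K16ac ChIP-seq islands of 1 NPC and 1 ESC library were analysed. The submitters' processing notes name SICER 1.1, Bowtie 0.12.7, CASAVA 1.8.2, bedtools 2.10.1, SAMtools 0.1.7 and the build mm9. SICER was run at an FDR of 0.01 with windows of 200 bp joined over gaps of up to 600 bp, per the names of the lists. Each deposited list holds positions and a whole number per island, read as the count of reads, deposited by the authors without scaling. Duplicate removal and the use of the input in calling are not given in the sources used here, and input libraries were not analysed here.

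Ends were taken as the last base of an island, which made all starts and widths on chromosomes 1 to 19 (100%) multiples of the window. Positions count from 1. Width was end minus start plus 1 base, density the reads per kb of island, and distance the bases between islands. Shares have exact Clopper-Pearson 95% intervals that treat islands as independent draws, and reads have exact Poisson intervals. Without molecular identifiers a read is not one independent molecule, and the intervals cover counting error only, not variation between cultures. With 1 library per cell type nothing was tested.

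The class and its comparisons were chosen with earlier results of these data known. Named islands were the 5 with most reads, the 5 farthest from and the 5 nearest to an NPC island, the 5 farthest from another ESC island, and the 5 windows of 1 Mb with most of the class, with ties taken by chromosome and start (10 islands held at least as many reads as the fifth). Gene positions, gene lists and base composition were not run, since no mm9 annotation or genome was used here, and no sequence is printed. Distances were tested on simulated data (200 of 200 planted distances recovered) and equalled those of bedtools 2.31.1 for all 39508 islands. Python 3.11.15, numpy 2.4.6, pandas 2.3.3, scipy 1.17.1 and matplotlib 3.10.9 were used.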

Additional observations from a re-analysis of the deposited data

How the results depend on the processing

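Each of 5 values was recomputed under 8 other settings, of which merging both lists across gaps of up to 2000 bp was chosen after seeing the data. Of the 40 values, 13 stayed within the 95% interval of the reported one and 27 left it. No paired analysis was possible because each cell type had 1 library. For the same reason no setting leaves out a library. All 5 values stayed within their interval with a minimum of 100 reads and with an NPC island within 600 bp counted as shared. The settings near a start site were not run without an mm9 annotation. Changing a density or width limit changes which islands are in the class, and the smaller or larger classes have fewer or more possible neighbours.

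The share absent from the NPC list was 76.6% below 100 and 82.7% below 140 reads per kb, 82.3% up to 1600 bp, 77.7% up to 2400 bp, 85.7% with equal list lengths and 81.4% with gaps merged. The share within 10 kb of an NPC island was 29.1% below 140 reads per kb, 30.6% up to 1600 bp, 34.2% up to 2400 bp, 27.5% with equal lengths and 28.7% with gaps merged. The median distance was 18.8 kb below 100 reads per kb, 24.1 kb below 140, 22.6 kb up to 1600 bp, 18.8 kb up to 2400 bp, 27.0 kb with equal lengths and 22.6 kb with gaps merged. The share within 10 kb of another ESC island was 39.8% below 100 reads per kb, 34.4% below 140, 36.2% up to 1600 bp, 40.4% up to 2400 bp and 29.1% with gaps merged. The share with another of the class within 20 kb was 6.95% below 100 reads per kb, 15.5% below 140, 8.35% up to 1600 bp, 16.8% up to 2400 bp and 9.71% with gaps merged. The unknown library depth limits what absence from the NPC list means.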
